A study of Rattus norvegicus with 9 samples.

Results

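The 9 genes described here are the early growth response factors Egr1, Egr2 and Egr3, the ETS factors Etv4 and Etv5, the phosphatase Dusp2, and the EGF receptor ligands Hbegf, Areg and Ereg, chosen by name out of 26249 annotated genes and gene units in the files. They were followed in mRNA-seq libraries of 3 groups with 3 libraries each. The first group was untreated rat bone marrow mesenchymal stem cells (MSCs) at passage 3. The second was neural progenitor-like cells (NPCs) obtained from such MSCs by 3 days with EGF and bFGF, each at 20 ng/ml by the study's methods. The third, called NPCs with IGF-1 here, received EGF, bFGF and IGF-1 for 3 days, and the IGF-1 dose is not stated in the labels. The MSCs came from 3 Sprague-Dawley rats aged 4 weeks. By the same methods induction took place in NeuroCult NS-A proliferation medium on plates of ultra-low attachment, and cells kept that way without growth factors were not analysed here. The effects of EGF and bFGF, of the medium and of suspension therefore cannot be told apart.

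EGF and FGF bind receptor tyrosine kinases that switch on RAS and, through a chain of kinases, ERK. Active ERK enters the nucleus and phosphorylates transcription factors at serum response elements, so that genes such as Egr1 are transcribed within minutes and without new protein synthesis. Etv4 and Etv5 are ETS factors well known as readouts of FGF signalling, Dusp2 is a nuclear phosphatase that removes phosphate from ERK, and Hbegf, Areg and Ereg are membrane-bound precursors whose shed ectodomains activate EGF receptors on the same or nearby cells.

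The promoters of Egr1, Egr2, Areg and Hbegf are shown because they belong to members that did and did not change with induction. RefSeq promoters on GRCr8 were matched by symbol for 6 of the 9 genes, and Egr3, Etv4 and Ereg had no entry. Each line gives the 250 bases before the annotated start, 5′ to 3′ on the strand of the gene, and capitals mark every match to one of the motifs searched. Egr1 lies on the plus strand at chr18:26736828-26737077, Egr2 on the minus strand at chr20:21054442-21054691, Areg on the minus strand at chr14:17265642-17265891 and Hbegf on the minus strand at chr18:28390221-28390470.
Egr1: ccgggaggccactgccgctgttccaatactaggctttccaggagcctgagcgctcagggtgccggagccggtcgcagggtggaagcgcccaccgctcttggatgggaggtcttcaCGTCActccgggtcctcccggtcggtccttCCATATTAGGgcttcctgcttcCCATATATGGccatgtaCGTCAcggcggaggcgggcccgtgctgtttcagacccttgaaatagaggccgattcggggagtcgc
Egr2: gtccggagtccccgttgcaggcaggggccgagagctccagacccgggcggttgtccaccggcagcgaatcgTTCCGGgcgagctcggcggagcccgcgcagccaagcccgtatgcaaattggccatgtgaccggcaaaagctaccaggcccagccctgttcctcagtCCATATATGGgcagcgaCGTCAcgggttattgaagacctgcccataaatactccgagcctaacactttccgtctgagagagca
Areg: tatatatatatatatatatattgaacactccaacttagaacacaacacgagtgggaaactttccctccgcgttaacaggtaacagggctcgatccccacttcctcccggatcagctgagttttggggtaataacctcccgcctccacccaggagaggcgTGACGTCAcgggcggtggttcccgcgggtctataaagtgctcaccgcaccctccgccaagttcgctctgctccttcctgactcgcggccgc
Hbegf: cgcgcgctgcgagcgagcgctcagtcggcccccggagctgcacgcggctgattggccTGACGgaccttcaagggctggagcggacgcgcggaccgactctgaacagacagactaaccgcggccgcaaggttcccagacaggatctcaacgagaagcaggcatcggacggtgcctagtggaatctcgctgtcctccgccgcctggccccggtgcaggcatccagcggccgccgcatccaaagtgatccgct

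The motifs were searched on both strands. They were the CArG box bound by serum response factor, the full cAMP response element TGACGTCA, the short form TGACG that lies within it, the AP-1 site TGANTCA, the EGR site GCGNGGGCG and the ETS core CCGGAA. Egr1 held 2 CArG boxes, which began 105 and 83 bases before the start, and Egr2 held 1, also 83 bases before the start. A CArG box was found in 501 of all 33469 promoters. In both genes a short cAMP response element began 66 bases before the start, a motif present in 18.2% of promoters. Areg held a full cAMP response element 91 bases before the start, found in 1.59% of promoters. Dusp2 held an EGR site 112 bases before the start, found in 4.29%, and Egr2 an ETS core, found in 12.6%. Hbegf held only a short cAMP response element and Etv5 held none of the motifs. AP-1 sites, found in 6.34% of promoters, were in none of the 6. These matches are descriptions of the sequence.

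The values are FPKM (read fragments divided by transcript length in kilobases and by library depth), summed over all isoforms of a gene, annotated or not. Depth, as read from the width of the deposited intervals, was 38.2 to 49.2 M reads a library. Comparisons were made with limma on log2(FPKM + 0.1) after rescaling, which understates the fold change of low genes, and a call needed an adjusted p (Benjamini-Hochberg) no higher than 0.05 together with a log2 fold change of 1 or more in either direction. All 9 genes passed the filter of 0.1 FPKM in 3 libraries. The p-values measure the spread between the 3 libraries of a group.

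Of the 7 MSC markers, 1 could be named, vimentin (Vim). It was at 2560 to 3015 FPKM in MSCs and at 674 to 879 FPKM in NPCs. Of the 5 progenitor markers, 2 could be named. Nes (nestin) was low in all groups but higher in every induced library, at 0.293 to 0.328 FPKM in NPCs and 0.268 to 0.331 FPKM with IGF-1 against 0.0534 to 0.152 FPKM in MSCs. Its log2 fold change was 0.89 in NPCs (limma adjusted p = 0.0419) and 0.85 with IGF-1 (0.0244), past the p threshold but not the fold threshold. Msi1 was between 0.212 and 0.719 FPKM over all 9 libraries and its groups overlapped. The macrophage marker Cd68 was at 9.54 to 11.4 FPKM in NPCs, 8.93 to 14.4 FPKM with IGF-1 and 0.226 to 0.502 FPKM in MSCs, while the pan-leukocyte gene Ptprc was at 0.0142 FPKM or less in every library. Only 2 of the 7 haematopoietic markers could be named, and the part of such cells in the results below was not tested. Rbfox3, the 1 named of 4 neuron markers, was listed at 0 in all 9 libraries. Vim, Nes and Cd68 had their symbols from the study's tables of changed genes. Their differences are therefore not independent of the study's own selection. In bulk RNA, fewer expressing cells and less RNA per cell cannot be told apart.

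NPCs were compared with MSCs to see how these genes stood after 3 days of EGF and bFGF. All 3 Egr genes, Etv4 and Dusp2 were higher in NPCs, Hbegf was lower, and Etv5, Areg and Ereg were not called. That is 5 of 9 higher and 1 lower, where 11.4% of the 13696 genes tested were called higher and 10.1% lower (21.5% in either direction). Dusp2 is among the 5 and entered the test only through the NPC libraries, since none of the MSC libraries reached 0.1 FPKM, so its call was partly set by the filter. With the filter at 1 FPKM, which Dusp2 does not pass, 4 of 7 members tested were higher and 1 lower. Over all 11083 genes tested at that filter, 1074 were called higher and 1079 lower. Egr3 and Etv4 were under 1 FPKM in most MSC libraries, so they passed that filter only with the NPC libraries. The groups did not overlap for 7 of the 9 genes, against 49.8% of all genes tested, and 6 had an unadjusted p under 0.05, against 46%. The median log2 fold change was 1.56 over the 9 genes and 0.02 over all genes tested. The symbols of Egr1, Egr3, Etv4, Dusp2 and Hbegf came from tables of genes that the study had selected as changed between these groups. The paper also lists Egr2 among the genes upregulated in NPCs. The direction of all 6 called genes is therefore not independent of the study's own selection.

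**Figure D1:**
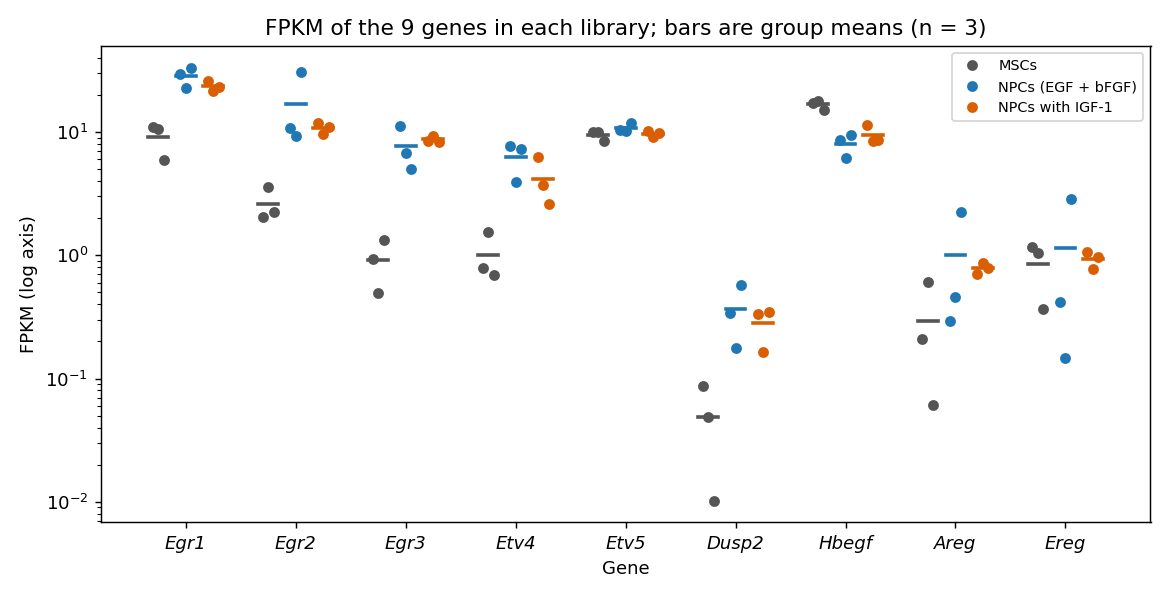
FPKM on a log axis for each of the 9 genes; points are libraries of MSCs, NPCs and NPCs with IGF-1 (3 each) and short bars are group means. The induced libraries of the Egr genes, Etv4 and Dusp2 lie above every MSC library, those of Hbegf lie below, and Areg and Ereg spread widely in NPCs, from 0.147 to 2.88 FPKM for Ereg.

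Egr1, a zinc finger factor and the classical readout of ERK, was at 29.9, 22.6 and 33.4 FPKM in NPCs against 10.9, 10.7 and 5.97 FPKM in MSCs. Every NPC library was above every MSC library. The log2 fold change of Egr1 was 1.58 (SE 0.24, limma adjusted p = 0.00248), a 2.99-fold difference. It was the highest of the 9 genes in NPCs, with a mean of 28.6 ± 5.50 FPKM (SD, n = 3).

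Egr2, a factor best known for its role in myelinating Schwann cells and hindbrain, was at 10.8, 9.36 and 30.9 FPKM in NPCs and at 2.03, 3.59 and 2.23 FPKM in MSCs. NPC library 3 stood apart from the other two, and its value is the sum of 2 assembled parts of the gene. With each transcript weighted by its length, the value of that library was 16.1 FPKM. The log2 fold change of Egr2 was 2.41 (SE 0.46, limma adjusted p = 0.0066) as summed, 2.37 with the weighting and 1.85 without that library.

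Egr3, which acts downstream of receptor signalling in muscle spindles and lymphocytes, showed the largest log2 fold change of the 9 genes at 2.86 (SE 0.43, limma adjusted p = 0.00228). Its values were 11.2, 6.75 and 4.98 FPKM in NPCs and 0.940, 0.490 and 1.33 FPKM in MSCs. The groups did not overlap.

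The ETS pair parted. Etv4 was at 7.68, 3.90 and 7.23 FPKM in NPCs and at 0.795, 1.54 and 0.693 FPKM in MSCs. The groups did not overlap, and the log2 fold change was 2.46 (SE 0.36, limma adjusted p = 0.00217). Etv5 was at 10.4, 10.2 and 11.9 FPKM in NPCs and at 9.97, 10.03 and 8.43 FPKM in MSCs. Its groups just failed to overlap, but its log2 fold change was only 0.11, with a 95% interval from -0.23 to 0.46 (limma adjusted p = 0.58). The mean of Etv5 in MSCs was 9.48 ± 0.904 FPKM (SD, n = 3), whereas the mean of Etv4 in MSCs was 1.01 ± 0.463 FPKM (SD, n = 3).

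Dusp2 was the lowest of the called genes, at 0.338, 0.177 and 0.575 FPKM in NPCs and 0.0866, 0.0488 and 0.0102 FPKM in MSCs. The intervals in the files correspond to about 21, 11 and 41 reads in NPCs and 6, 4 and 1 reads in MSCs. The log2 fold change was 1.56 (SE 0.40, limma adjusted p = 0.0203), in a gene that passed the filter only through the group where it was high. With no filter on low values, the adjusted p was 0.0282. The call was lost without MSC library 2 (adjusted p = 0.0514) or MSC library 3 (adjusted p = 0.0666), and without any one NPC library the gene no longer passed the filter.

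Hbegf was the only member that fell, and the only ligand of the 3 that was called. It was at 8.63, 6.14 and 9.41 FPKM in NPCs and at 17.2, 18.0 and 15.1 FPKM in MSCs, where it was the most abundant of the 9 genes. Every NPC library was below every MSC library, with a log2 fold change of -1.15 (SE 0.20, limma adjusted p = 0.00438), 2.21-fold lower. Without NPC library 2 the log2 fold change was -0.94, which misses the fold threshold.

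Areg and Ereg, neighbours on chromosome 14 that encode amphiregulin and epiregulin, were low in all groups. Areg was at 0.291, 0.461 and 2.25 FPKM in NPCs and at 0.208, 0.610 and 0.0608 FPKM in MSCs, and the groups overlapped (log2 fold change 1.25, 95% interval -0.51 to 3.02, limma adjusted p = 0.236). Ereg was at 0.416, 0.147 and 2.88 FPKM in NPCs and at 1.17, 1.04 and 0.366 FPKM in MSCs (log2 fold change -0.33, 95% interval -2.38 to 1.72, limma adjusted p = 0.792). NPC library 3 was the highest of the NPC libraries for Areg, Ereg, Egr1, Egr2, Etv5, Dusp2 and Hbegf. Without it the log2 fold change of Areg was 0.46 and that of Ereg was -1.36, neither called.

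**Figure D2:**
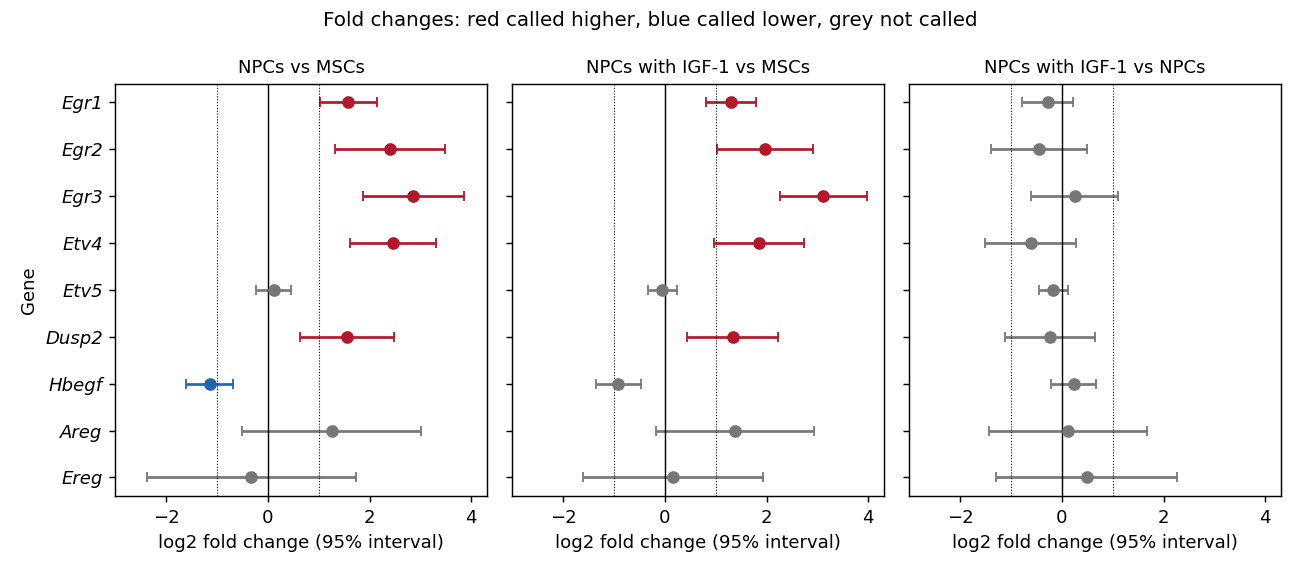
log2 fold changes with 95% intervals from limma for the 9 genes in the 3 comparisons; dotted lines mark a log2 fold change of 1 in size. The estimates of the 5 genes called higher lie between 1.56 and 2.86 in NPCs vs MSCs, and every interval of NPCs with IGF-1 vs NPCs spans 0.

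NPCs with IGF-1 were set against the same 3 MSC libraries, so the comparisons share their controls. Egr1, Egr2, Egr3, Etv4 and Dusp2 were again higher, 5 of 9 genes, and none was called lower, where 11.6% of the 14228 genes tested were called higher and 9.83% lower (21.4% in either direction). Dusp2 again entered the test only through induced libraries, so its call was partly set by the filter. With the filter at 1 FPKM, 4 of 7 members tested were higher and 0 lower. Over all 11386 genes tested at that filter, 1210 were called higher and 1077 lower. Egr3 and Etv4 passed that filter only with induced libraries. The limits on symbol source given for NPCs hold here too. The groups did not overlap for 7 of the 9, against 54.4% of all genes tested, and 6 had an unadjusted p under 0.05, against 47.8%. The median log2 fold change was 1.33 over the 9 genes and 0.05 over all genes tested.

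Egr1 was at 26.2, 21.4 and 23.0 FPKM with IGF-1, a log2 fold change of 1.30 against MSCs (SE 0.22, limma adjusted p = 0.00166). Egr2 was at 11.9, 9.68 and 11.1 FPKM (1.97, SE 0.42, limma adjusted p = 0.00555), without a library that stood apart. Egr3 was at 8.53, 9.23 and 8.36 FPKM and again had the largest log2 fold change, 3.11 (SE 0.38, limma adjusted p = 0.000269).

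Etv4 was at 6.22, 3.69 and 2.62 FPKM (log2 fold change 1.85, SE 0.40, limma adjusted p = 0.00558). Etv5 was at 10.2, 9.17 and 9.80 FPKM and overlapped the MSCs (-0.05, 95% interval -0.33 to 0.23). Dusp2 was at 0.333, 0.165 and 0.347 FPKM (1.33, SE 0.39, limma adjusted p = 0.025, and 0.0335 with no filter), and again passed the filter only through induced libraries. Its call was lost without IGF-1 library 1 or 3 (adjusted p = 0.0734 and 0.0797) and without MSC library 2 or 3 (adjusted p = 0.0592 and 0.0815).

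Among the ligands, Hbegf was at 11.4, 8.44 and 8.65 FPKM, below every MSC library. It passed the p threshold but not the fold threshold (log2 fold change -0.91, SE 0.19, limma adjusted p = 0.00553), and without IGF-1 library 1 it was called at -1.05. Areg was at 0.706, 0.860 and 0.791 FPKM, above every MSC library, but was not called (1.38, 95% interval -0.17 to 2.93, limma adjusted p = 0.143). Without NPC library 3, which enters the shared spread, it was called (adjusted p = 0.0486). Ereg was at 1.07, 0.769 and 0.973 FPKM, within the range of the MSCs.

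NPCs with IGF-1 were compared with NPCs to see what IGF-1 added. None of the 9 genes was called, each with a limma adjusted p of 1 and none with an unadjusted p under 0.05. Of all 14228 genes tested, 3 were called (0.0211%), 0.0141% higher and 0.00703% lower, and 657 had an unadjusted p under 0.05 (4.62%). The log2 fold changes of the 9 genes were between 0.12 and 0.62 in size, and the groups overlapped for each, where 9.6% of all genes tested did not overlap. The widest intervals were those of the low ligands, -1.29 to 2.26 for Ereg and -1.43 to 1.68 for Areg, and the narrowest that of Etv5, -0.45 to 0.11. Etv4 had the largest difference, -0.62 (95% interval -1.51 to 0.28). These intervals leave room for changes of more than the fold threshold in Egr2, Egr3, Etv4, Dusp2, Areg and Ereg.

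How the level was made up of isoforms differed between libraries. With annotated transcripts alone, 1 of the 9 genes was called in each comparison with MSCs, Egr1, higher in both, instead of 6 and 5. Over all genes tested that way, 1199 of 12525 were called in NPCs and 1501 of 13474 with IGF-1, in either direction. The fold changes did not all shrink with the loss of the call. In NPCs the log2 fold change fell to 0.64 for Egr2 (adjusted p = 0.858), was 2.67 for Etv4 (0.144) and 1.60 for Dusp2 (0.0647), close to the values above, and was -3.18 for Hbegf (0.316), larger in size. With IGF-1 it was 2.87 for Egr2 (adjusted p = 0.298), 2.22 for Etv4 (0.15) and 1.35 for Dusp2 (0.0693). An annotated transcript was listed at 0 in a single library in each of 5 genes while unannotated isoforms of the same gene held the reads. These were Egr2 in NPC library 3, Egr3 in IGF-1 library 1, Etv4 in MSC library 2, Etv5 in IGF-1 library 3 and Hbegf in NPC library 2. Dusp2 and Ereg had annotated transcripts alone in all 9 libraries.

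Egr3 showed the clearest difference in assembled isoforms. In MSCs its whole level lay in the annotated transcript of 1406 bases, which ends at position 55485279 on chromosome 15 in the coordinates of the files, for which no build is named. In 5 of the 6 induced libraries unannotated isoforms ran past that end, to between positions 55486628 and 55487131, and the annotated transcript made up 0 to 36.4% of the FPKM of the gene. NPC library 3 was the exception, with the annotated transcript alone at 4.98 FPKM. The intervals correspond to about 49, 32 and 53 reads of Egr3 in MSCs and 191 to 820 in the induced libraries. NPC library 3 held the 191. In libraries with several isoforms these numbers may be too low, since the intervals also hold error of isoform assignment. The part of read number in this isoform difference was not tested. Separate unannotated fragments beyond the end of Egr3 on its strand were found in all 9 libraries, at 1.26 to 10.1 implied reads per M in the induced libraries and 0.390 to 1.64 in MSCs, so reads past that end were not confined to induced cells. By annotated transcripts alone the log2 fold change of Egr3 was 1.78 in NPCs (adjusted p = 0.0944) and -0.22 with IGF-1 (adjusted p = 0.933). Weighted by length, it was 3.23 and 4.12.

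Egr1 had unannotated isoforms in 8 of 9 libraries, and its annotated transcript made up 48.2 to 100% of the level. In Etv4 unannotated isoforms were present in 6 libraries, 5 of them induced. In Hbegf they were present in 3 induced libraries and in none of the MSCs. The annotated transcript of Hbegf alone was at 5.84, 0 and 9.41 FPKM in NPCs against 17.2, 18.0 and 15.1 FPKM in MSCs. Induced libraries held more unannotated transcripts over the whole file, 64618 to 90998 against 28763 to 36570 in MSCs, and the part of this difference in the isoforms of the 9 genes was not tested.

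**Figure D3:**
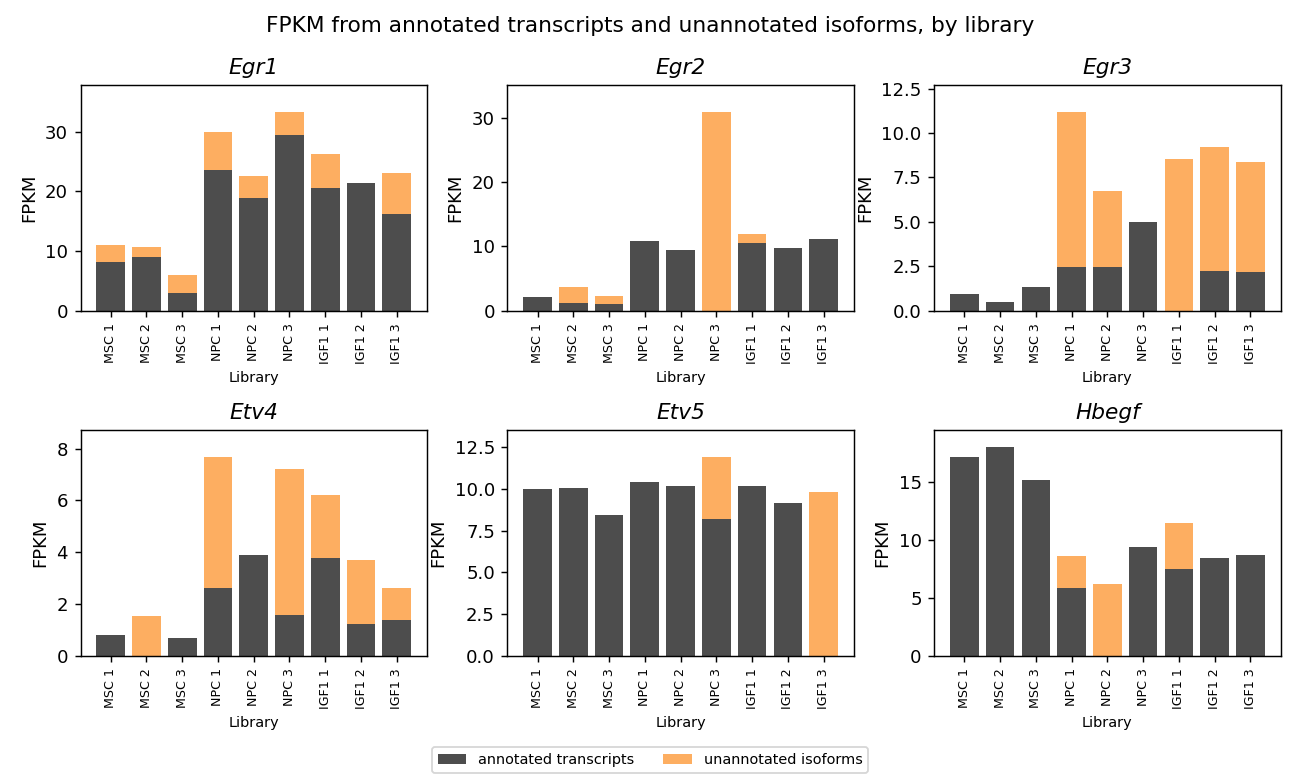
FPKM of 6 genes in each library on linear axes, split into annotated transcripts (dark) and unannotated isoforms (orange). The dark part of Egr3 is at most 36.4% of the bar in 5 of the 6 induced libraries and the whole bar in the 3 MSC libraries; the dark part is absent in 1 library each of Egr2, Egr3, Etv4, Etv5 and Hbegf.

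Other genes of the pathway were taken from lists, of which only part could be named in the files, and many of the named genes came from the study's tables of changed genes. Of the 28 other early response factors, 7 were named and tested, and 4 rose in NPCs, none fell and 3 were not called. Of all genes tested, 11.4% were called higher in NPCs. The symbols of Arc, Nr4a2 and Klf10, and of Klf5, which was not called, came from the study's tables of changed genes. Arc, which encodes a synaptic protein induced by activity, rose from 0.691, 0.517 and 0.432 FPKM in MSCs to 3.66, 4.61 and 5.06 FPKM in NPCs (log2 fold change 2.75, limma adjusted p = 0.00024). Nr4a2, an orphan nuclear receptor of the early response, rose by a log2 fold change of 1.94 (limma adjusted p = 0.00403), Klf10 by 1.11 (0.00427) and the antiproliferative gene Btg2 by 1.00 (0.0329). With IGF-1 3 of the 7 rose against MSCs, Arc, Nr4a2 and Klf10, where 11.6% of all genes tested were called higher. Ier3, the most abundant of them at 119 to 218 FPKM over the 9 libraries, was not called in either comparison.

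Of 12 ETS and SRF factors, 2 were named. Elk4, a partner of serum response factor at CArG boxes, rose in NPCs (log2 fold change 1.36, limma adjusted p = 0.000525) and with IGF-1 (1.28, 7.61e-05). Ets2 passed the p threshold without the fold threshold (0.52, adjusted p = 0.0476, and 0.75, adjusted p = 0.00268). For Elk4 the symbol came from the study's tables of changed genes. Higher calls made up 11.4% of all genes tested in NPCs and 11.6% with IGF-1. No named gene was available for 18 ERK feedback regulators or 5 ligand sheddases.

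Besides Hbegf, a pair of other EGF receptor family ligands was lower after induction. Tgfa, which encodes transforming growth factor alpha, fell from 8.17, 8.25 and 12.6 FPKM in MSCs to 2.04, 1.22 and 1.70 FPKM in NPCs (log2 fold change -2.55, limma adjusted p = 0.000807) and was at 1.37, 1.64 and 1.41 FPKM with IGF-1. Epgn, which encodes epigen and lies next to Ereg, was at 0.536, 0.896 and 0.595 FPKM in MSCs and was listed at 0 in 2 of 3 NPC libraries and in all 3 with IGF-1. It was called lower in both comparisons (limma adjusted p = 0.00433 and 0.000437). It passed the filter only with the MSC libraries, the group where it was high, so its calls were partly set by the filter. Btc, which encodes betacellulin, was at 0.118 FPKM or less in every library and was not tested. Thus 2 of the 3 named ligands of the 8 in that list were called lower, Epgn with that limit. Of all genes tested, 10.1% were called lower in NPCs and 9.83% with IGF-1. The symbol of Tgfa came from the study's tables of changed genes.

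Of the receptors, Erbb4 alone of 4 was named and fell in NPCs (log2 fold change -1.97, limma adjusted p = 0.0072), from 2.23, 1.05 and 1.09 FPKM to 0.364, 0.162 and 0.396 FPKM. In the FGF receptor list the adaptor Frs3 rose (1.36, adjusted p = 0.0163). Fgfr4 was at 0.0598 to 0.388 FPKM in NPCs and listed at 0 in 2 of 3 MSC libraries. Of 22 genes of the RAS-ERK cascade only Rps6ka2, an S6 kinase that ERK activates, was named, and it fell (-2.62, adjusted p = 0.000439). In the IGF-1 receptor arm the binding protein Igfbp7 rose (1.49, adjusted p = 0.00406) and Igfbp6 fell (-2.83, adjusted p = 0.00377). Erbb4, Frs3, Fgfr4, Rps6ka2 and Igfbp6 had their symbols from the study's tables of changed genes. Their direction is therefore not independent of the study's own selection. Called higher in NPCs were 11.4% of all genes tested, and called lower 10.1%. None of the genes of these lists was called between NPCs with IGF-1 and NPCs.

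**Figure D4:**
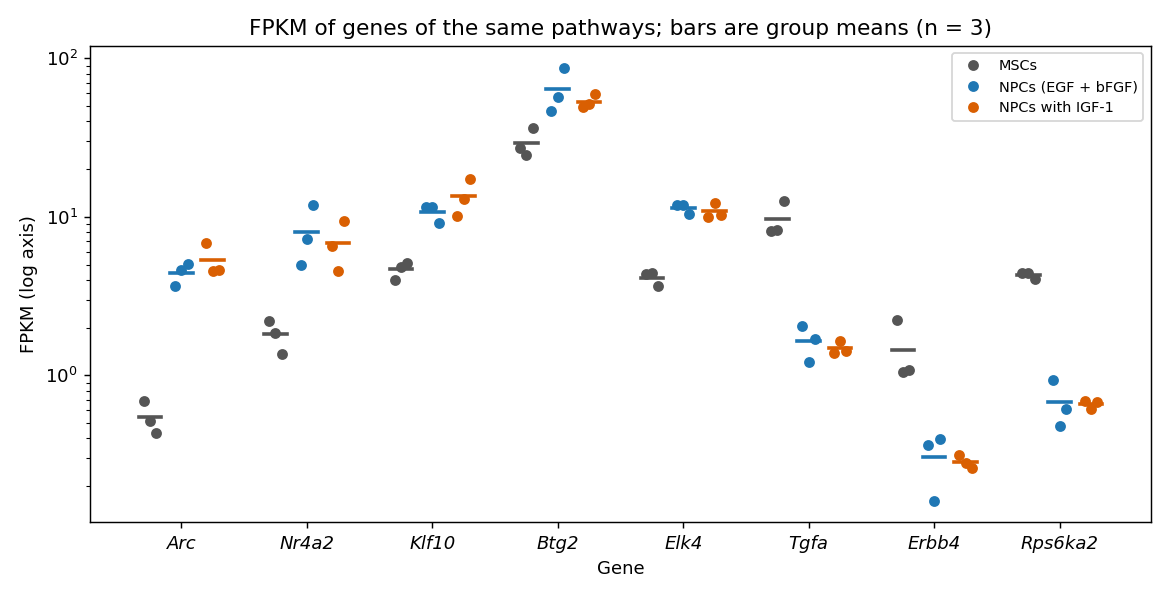
FPKM on a log axis of 8 genes of the same pathways in the 9 libraries, with group means as bars. Arc, Nr4a2, Klf10, Btg2 and Elk4 are higher in all 3 NPC libraries than in MSCs, and Tgfa, Erbb4 and Rps6ka2 are lower.

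The profiles of the 9 genes over the 9 libraries were set against 1304 named genes with a mean of at least 1 FPKM, by the root mean square difference of centred log2 values. Closest to Egr1 were Ptpre (0.14), Tgfbr1 (0.18) and Rogdi (0.20). Closest to Egr2 were Whrn (0.34), Cnnm1 (0.37) and Irf7 (0.40), and closest to Egr3 were Ntn1 (0.37), Isyna1 (0.39) and Barx1 (0.41). Irf7 (0.19), Tnfaip3 (0.31) and Efr3b (0.33) were closest to Etv4. The flat profile of Etv5 was nearest to Ccdc91 (0.07), Gatc (0.09) and Smpd4 (0.09), and that of Hbegf to Plp2 (0.17), Fam98a (0.18) and Serf2 (0.19). Dusp2, Areg and Ereg were below the level set for this description.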

How the data were processed

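Stranded mRNA libraries from 300 ng of RNA were sequenced as single reads. Cufflinks, Cuffdiff, TopHat, Bowtie2, bcl2fastq and CASAVA 1.8 appear in the submitters' processing notes, and no genome build or annotation release is stated for the deposited files. The paper describes another route (BBDuk, STAR on rn6 with Ensembl release 99, RSEM, DESeq2), whose values are not in these files. The authors deposited 1 Cufflinks assembly per library, whose attribute text holds the FPKM of each transcript with a 95% interval, scaled within the library. The deposited score column was not used. FPKM of annotated transcripts and of unannotated isoforms sharing exons were added per gene, divided by median-of-ratios size factors (0.872 to 1.06) and tested in limma 3.58.1 (R 4.3.3; eBayes with trend and robust) on log2(FPKM + 0.1). Genes needed 0.1 FPKM in 3 libraries and an annotated transcript of 300 bases. NPCs and MSCs were fitted in their 6 libraries and the IGF-1 comparisons in all 9. Depth and read numbers were inferred from interval widths, which hold counting and isoform assignment error but no replicate error. Read numbers of genes with several isoforms may therefore be too low. Symbols came from the study's additional tables, which named 2451 gene IDs in the files. Steps were tested on simulated data. A first criterion, on how many large changes were called, failed in NPCs vs MSCs and was replaced after that result was seen. The misses were falls of genes near 0 FPKM and genes of large spread. Estimates above the floor were unbiased. That check used only genes with a higher mean level than Dusp2, Areg and Ereg. Other steps used Python 3.11.15.

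The members and lists were chosen with earlier results of these data known. Named in the text were all 9 members, up to 4 genes of each list (first by size of a called change, then by FPKM), and the 3 named genes of most similar profile for members with a mean of at least 1 FPKM. Same-numbered libraries did not deviate together in every pair (correlations -0.10 to 0.10), so the numbers were not used as pairs. The main fits thus treated the groups as independent, although MSCs and NPCs share donors. Alternatives were pseudocounts of 1 and 0.01, filters, scalings, eBayes without trend, a replicate block, annotated transcripts only, genes of every length, other library sets and leaving out each library. A length-weighted sum was added after seeing the data.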

Additional observations from a re-analysis of the deposited data

Results flagged for a closer look

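Unannotated single-exon transcripts on the same strand within Etv5, outside its exons, were not part of the FPKM reported for the gene and stood above the level in the controls. They were present in all 6 induced libraries and in none of the 3 MSC libraries, with a mean of 0.883 implied reads per M reads over the induced libraries (0.757 to 1.07). The mRNA of Etv5 itself did not differ by the test, and induced libraries held more unannotated transcripts over the whole file. The part of that difference in this signal was not tested. Etv5 was the only member where every induced library was above every MSC library in such signal. Same-strand fragments within Hbegf were in all 6 induced libraries and 2 MSC libraries (means 2.87 in NPCs, 1.84 with IGF-1, 0.374 per M in MSCs). Those within Etv4 and Egr3 were in 4 and 3 induced libraries and in no MSC library. Those within Egr1 and Egr2 were in MSCs as well.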

How the results depend on the processing

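The count of genes called between NPCs and MSCs (2949) was 1714 with a pseudocount of 1 and 1199 with annotated transcripts only, and against MSCs with IGF-1 (3046) it was 1759 and 1501. The members called were 1 with annotated transcripts only in both comparisons with MSCs. They were 4 to 6 in each when single libraries were left out. For NPCs with IGF-1 vs NPCs the 3 genes called became 5 with no filter, 5 without trend and robust, 19 with annotated transcripts only and 9 with genes of every length, and 1 to 10 with single libraries left out, while no member was called under any alternative run. With the replicate number as a block, 2863, 3004 and 1 genes were called and 6, 5 and 0 members; the numbers are not known to pair the libraries.

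Signs that reversed belonged to values not called in the comparison, except Egr3. For NPCs vs MSCs, Ereg was 0.0093 with a pseudocount of 1 and -1.36 to 0.46 with single libraries left out. For NPCs with IGF-1 vs MSCs, Etv5 was 0.038 without rescaling, Ereg was -0.11 with quantile normalisation and -0.25 to 0.40 with single libraries left out, and Egr3 was -0.22 with annotated transcripts only. For NPCs with IGF-1 vs NPCs, Areg was -0.049 with a pseudocount of 1 and -0.22 with annotated transcripts only, where Egr2 was 2.23 and Egr3 -2.01. With single libraries left out, Areg was -0.39 to 0.92, Ereg -0.30 to 1.52, Egr2 -0.78 to 0.12 and Dusp2 -0.58 to 0.10. Dusp2 also lost its call with a pseudocount of 1 (0.36 and 0.28) and, with IGF-1, with quantile normalisation (0.98). The causes were not tested. Counting error limits Dusp2, Areg and Ereg most, with as few as 1, 3 and 4 reads in a library.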
